A study of Mus musculus with 30 samples.

Results

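The genes described here are 8 components of the death receptor and caspase pathway: Fas, Fadd, Cflar, Casp8, Casp9, Bid, Apaf1 and Xiap. They were chosen by name, as the pathway's core from receptor to caspase, and are 8 of 28279 genes named in at least 1 of the 2 expression tables of the series. All 8 are listed in both tables and all 8 passed the filter on low values in each of the 4 comparisons. RNA was sequenced from splenic B cells of C57BL/6 mice, some of which carry a conditional Ikzf3-L161R knock-in allele that is active in B cells only. Aiolos, the product of Ikzf3, is a DNA-binding zinc finger protein of lymphocytes. The Cre line that activates the allele is not given in the sources used here. The young set (2 to 3 months of age) holds wild-type B cells (n = 3) and B cells homozygous for the mutation (Ikzf3 fl/fl, n = 3). The aged set (15 to 18 months) holds wild-type B cells (n = 3), chronic lymphocytic leukaemia (CLL) cells of mutant mice, sorted as B220+ CD5+ cells (n = 5), and B cells of mutant mice other than the leukaemia, called non-CLL B cells (n = 4). CLL libraries 1, 2, 4 and 5 and non-CLL libraries 2, 4 and 5 come from heterozygous (fl/+) mice, and number 6 of both groups from a homozygous (fl/fl) mouse. The series text places the non-CLL cells in the same mice as the CLL cells, so numbers 2, 4, 5 and 6 were taken as pairs of the 2 groups. B cells were taken with magnetic beads, with a stated purity of at least 85% in the aged set.

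Fas is a cell surface receptor that, once bound by its ligand, recruits the adaptor Fadd, and Fadd recruits the initiator caspase Casp8. Cflar encodes c-FLIP, a relative of Casp8 that competes for this complex and can hold back its activation. Active Casp8 cuts Bid, whose fragment opens mitochondria, and released cytochrome c joins Apaf1 to form the apoptosome, on which Casp9 is activated. Xiap binds and blocks Casp9 and the executioner caspases. In the spleen, B cells raise Fas when they are activated, and Fas signals remove autoreactive and germinal centre B cells.

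The receptor and its adaptor were the members lower in young mutant B cells, and their start sites are shown for that reason. The bases before the start site are from RefSeq (GRCm38.p6, the assembly of mm10). For Fas they are chr19:34290409-34290646 on the plus strand, and for Fadd chr7:144582442-144582691 on the minus strand. Both run 5′ to 3′ up to the base before the gene, and capitals mark the letters of a searched motif.
Fas: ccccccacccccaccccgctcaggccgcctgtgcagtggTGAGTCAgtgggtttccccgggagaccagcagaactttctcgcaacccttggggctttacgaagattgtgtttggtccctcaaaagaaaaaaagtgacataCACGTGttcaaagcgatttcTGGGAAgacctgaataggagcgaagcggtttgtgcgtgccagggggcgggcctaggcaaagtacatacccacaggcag
Fadd: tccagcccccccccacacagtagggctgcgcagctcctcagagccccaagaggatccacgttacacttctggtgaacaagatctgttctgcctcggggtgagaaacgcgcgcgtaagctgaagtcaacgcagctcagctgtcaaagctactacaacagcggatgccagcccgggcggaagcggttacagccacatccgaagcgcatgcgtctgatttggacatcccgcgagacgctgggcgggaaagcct
Searched on both strands, in the 250 bases before each start, were TGGGAA (the core bound by Ikaros family proteins such as Aiolos), TGANTCA (AP-1), CACGTG (the E-box bound by Myc) and the NF-kB motif. The Fas stretch holds TGAGTCA 199 bases, CACGTG 98 bases and TGGGAA 78 bases before the gene's first base, and the Fadd stretch holds none of the 4 motifs. TGGGAA occurs in 21.6% of 32851 mouse windows, TGANTCA in 6.75%, CACGTG in 6.02% and the NF-kB motif in 0.356%. Of the 10 windows of the 8 members, 2 hold TGGGAA (Fas and 1 of 3 Xiap windows, 107 bases before that window's own start site). The NF-kB motif was found in none of the 10, and the remaining 2 motifs in the Fas window only. TGGGAA and the NF-kB motif share a run of GGGA and can overlap. These are matches of letters and say nothing of binding.

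Fas lies on chromosome 19 (34290647 to 34327775) and Fadd on chromosome 7 (144578323 to 144582441). Cflar (chromosome 1, 58711311 to 58758884) and Casp8 (58795233 to 58847503) are neighbours, 36.3 kb apart. Casp9 lies on chromosome 4 (141793612 to 141815978), Bid on chromosome 6 (120893119 to 120917062), Apaf1 on chromosome 10 (90989311 to 91082743) and Xiap on the X chromosome (42059613 to 42109664). Casp9 overlaps Cela2a, Apaf1 overlaps Ikbip and Gm25390, and Bid overlaps Gm17812 in the RefSeq table. The strandedness of the libraries is not given in the sources used here, so reads of these overlaps cannot be told apart from those of the member.

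Values are TPM (transcript abundance scaled for gene length and for the total of the library), which keep no read depth, so the depth behind each value is unknown. Several libraries stood apart in other genes. Young wild-type libraries hold more myeloid RNA than the homozygous ones: the summed level of 16 of 16 myeloid markers was 1485 to 5398 TPM against 167 to 425 TPM, led by Lyz2. In the aged set the same sum (15 of 16 markers listed) was 7072 TPM in CLL library 2 and between 19.2 and 300 TPM in all others. Natural killer cell markers (8 of 8) summed to 156 to 751 TPM in non-CLL, 13.9 to 62.5 TPM in CLL and 7.63 to 36.7 TPM in wild-type libraries. The dendritic cell gene Siglech was at 137 to 784 TPM in non-CLL libraries and at 18.1 TPM or less in CLL libraries. All 9 dendritic cell markers together overlapped, with sums of 566 to 1184 TPM in non-CLL and 226 to 1302 TPM in CLL libraries. These sums are led by different genes, Siglech in non-CLL libraries and Ly6d (187 to 1247 TPM) in CLL libraries. The highest sum was that of CLL library 1. T cell markers (10 of 10) summed to 153 to 717 TPM in aged wild-type, 367 to 615 TPM in non-CLL and 151 to 575 TPM in CLL libraries, with the defining marker Cd3e at 0 to 0.281 TPM, 5.50 to 15.0 TPM and 1.13 to 10.5 TPM. B cell markers summed to at least 12275 TPM in every aged library and 17471 TPM in every young one, and no B cell marker was at 0 in any library. The sort marker Cd5 was at 16.3 to 36.1 TPM in CLL libraries, 5.54 to 11.2 TPM in non-CLL and 1.16 TPM or less in aged wild-type libraries. A background level was taken from the median of olfactory receptor genes, which B cells do not use. It was 7.16 to 9.24 TPM in non-CLL libraries, 1.08 to 2.71 TPM in CLL libraries 1, 2, 4 and 5, 9.66 TPM in CLL library 6, at most 0.745 TPM in aged wild-type and 0 in young libraries. The part of these differences in the results below was not tested, except where a value without a library or with the background subtracted is given. In bulk RNA of this kind, fewer cells of a type and less RNA per cell cannot be told apart.

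Which of the 8 genes differ between homozygous and wild-type B cells before leukaemia was addressed in young mice. Sex differs as well: wild-type libraries 1 and 2 hold Xist RNA, while wild-type library 3 and all homozygous libraries hold the Y-linked Ddx3y. The part of sex and of myeloid RNA in the changes below was not tested. Fits without wild-type libraries 1 and 2 are given, but they leave 1 wild-type library and change sex and myeloid RNA together. Cflar, Xiap and Apaf1 rose in homozygous cells, by factors of 1.60, 1.65 and 1.34, while Fas and Fadd fell, to 0.765 and 0.674 of the wild-type level. Genes that changed thus include both restraints of the pathway (Cflar, Xiap), the apoptosome scaffold, and the receptor with its adaptor. Casp8, Casp9 and Bid did not pass the test. With 3 of 8 members called higher and 2 lower (limma with Benjamini-Hochberg adjustment over all genes, adjusted p under 0.05), the members' share is to be read against all 12219 genes tested, of which 38.4% were called higher and 12.6% lower, 51.0% in either direction. The members' median log2 change was 0.28, against 0.18 for all genes tested. Groups did not overlap for 7 of 8 members, against 61.4% of all genes.

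**Figure D1:**
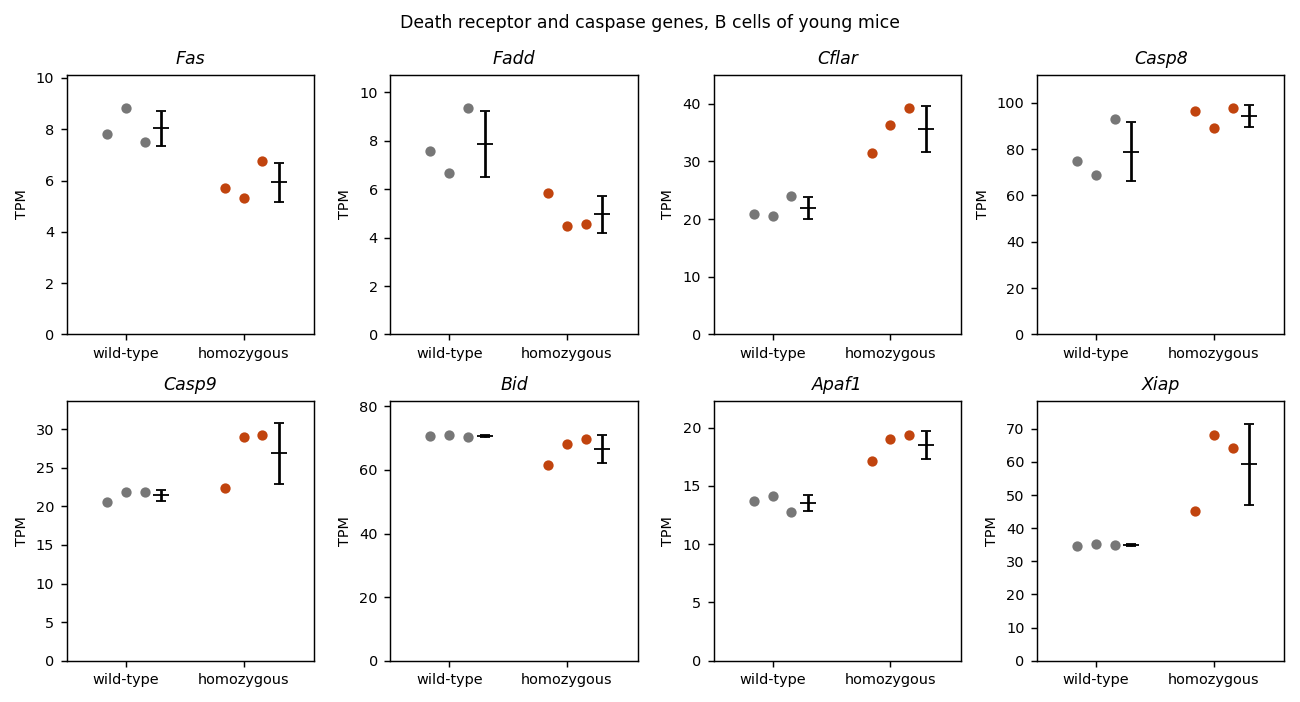
TPM of each of the 8 genes (vertical axes, each from 0) in the 3 wild-type and 3 homozygous young libraries; points are libraries, bars beside them the mean and SD. The groups are apart for every gene except Casp8, with Cflar at 20.6 to 24.1 TPM against 31.4 to 39.2 TPM and Fadd at 6.65 to 9.33 TPM against 4.46 to 5.84 TPM.

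At the receptor, wild-type libraries 1, 2 and 3 had Fas at 7.82, 8.81 and 7.50 TPM, and homozygous libraries 1, 2 and 3 had it at 5.70, 5.33 and 6.76 TPM. Every homozygous library was below every wild-type library. The log2 change was -0.39 (SE 0.13, limma adjusted p = 0.0325). The call was lost without wild-type library 1 (adjusted p = 0.0781), wild-type library 2 (0.112), homozygous library 1 (0.0765) or homozygous library 2 (0.110), with log2 changes of -0.40 to -0.32. Fas is also expressed by myeloid cells, whose markers were lower in the homozygous libraries. Wild-type libraries 1 and 2 held the most Lyz2 (1443 and 2330 TPM, against 222 TPM in library 3). Without both, the log2 change of Fas was -0.30. That fit leaves 1 wild-type library and also removes both libraries with Xist RNA. The part of myeloid RNA in the Fas change was not tested. Fadd, the adaptor, was at 7.57, 6.65 and 9.33 TPM in wild-type and at 5.84, 4.46 and 4.56 TPM in homozygous libraries, again without overlap. Its log2 change was -0.57 (SE 0.16, adjusted p = 0.0145). Without homozygous library 3 it was -0.52 (adjusted p = 0.0547), and without wild-type libraries 1 and 2 it was -0.80 (adjusted p = 0.0285).

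Cflar, the restraint on Casp8, was at 20.9, 20.6 and 24.1 TPM in wild-type and 31.4, 36.4 and 39.2 TPM in homozygous libraries. All homozygous libraries were higher, and the lowest of them exceeded the highest wild-type library by more than the SD of either group (1.91 and 3.96 TPM). The log2 change was 0.68 (SE 0.11, adjusted p = 0.00120), and it was called in all 6 fits that left out 1 library (adjusted p = 0.000838 to 0.00733). Casp8 itself was at 74.7, 68.7 and 93.2 TPM against 96.6, 89.0 and 97.6 TPM. Here the groups overlap, because wild-type library 3 lies above homozygous library 2. The log2 change of Casp8 was 0.27 (95% interval 0.01 to 0.52, adjusted p = 0.0748), and it was 0.39 (adjusted p = 0.00458) without wild-type library 3. Without wild-type library 2 it was 0.17 (adjusted p = 0.233), without wild-type libraries 1 and 2 it was 0.02 (adjusted p = 0.926), and with TMM rescaling, a trimmed mean of log ratios, it was 0.06 (adjusted p = 0.640).

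Of the mitochondrial arm, Bid was at 70.6, 71.1 and 70.2 TPM in wild-type and 61.6, 68.2 and 69.7 TPM in homozygous libraries. The groups just miss each other, and the log2 change was -0.09 (95% interval -0.26 to 0.08, adjusted p = 0.357). Apaf1, the scaffold of the apoptosome, was at 13.7, 14.1 and 12.8 TPM against 17.1, 19.0 and 19.4 TPM. Its homozygous libraries were all higher (log2 0.42, SE 0.09, adjusted p = 0.00574). Casp9, the caspase activated there, was at 20.6, 21.8 and 21.9 TPM against 22.3, 29.0 and 29.3 TPM. Homozygous library 1 lies next to the wild-type libraries and the other two well above them. The log2 change of Casp9 was 0.30 (95% interval 0.05 to 0.56, adjusted p = 0.0505), and without homozygous library 1 it was 0.43 (adjusted p = 0.00543). It was 0.24 without homozygous library 2 or 3 (adjusted p = 0.159 and 0.173), 0.10 with TMM rescaling (adjusted p = 0.401) and 0.09 with quantile normalization (adjusted p = 0.474).

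Xiap, the caspase inhibitor, was at 34.6, 35.4 and 35.0 TPM in wild-type and 45.3, 68.2 and 64.2 TPM in homozygous libraries. The wild-type libraries were nearly equal and all homozygous ones higher (log2 0.72, SE 0.14, adjusted p = 0.00385). Xiap is on the X chromosome, and the sexes differ between these libraries: wild-type libraries 1 and 2 hold Xist RNA (80.9 and 63.1 TPM), while wild-type library 3 and all homozygous libraries hold the Y-linked Ddx3y (54.3 TPM and 107 to 148 TPM). Within wild-type, Xiap in library 3 (35.0 TPM) lay between libraries 1 and 2. Without wild-type libraries 1 and 2 the log2 change was 0.72 (adjusted p = 0.0833).

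Scaling moved these values. With TMM rescaling the median of all genes went from 0.18 to -0.01 and calls went from 75.3% to 51.7% higher (55.1% with quantile normalization). Cflar (log2 0.48, limma adjusted p = 0.00305), Xiap (0.52, adjusted p = 0.0130), Fas (-0.57, adjusted p = 0.00762) and Fadd (-0.75, adjusted p = 0.00590) kept their calls. Apaf1 lost its call (0.23, adjusted p = 0.0571), and Bid was called lower (-0.29, adjusted p = 0.00640). With no filter on low values, no member was called, and 10 of 26266 genes were.

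In aged mice the first question is how CLL cells differ from wild-type B cells. Fas and Cflar were lower in CLL cells, at 0.174 and 0.379 of the wild-type level on the log2(TPM + 1) scale, and the other 6 members did not pass the test. In limma 2 of 8 members were called lower and 0 higher. The background is 0.604% of 21202 genes called lower and 2.94% called higher, 3.54% in all. At an unadjusted p under 0.05 the members again gave 2 lower and 0 higher, against 743 and 9033 of all genes. The members' median log2 change was -0.56, against 0.93 for all genes tested. Over genes that reach 20 TPM in at least 3 libraries, the median change of all genes was -0.04. Of all called genes 83.0% were higher, and 40.7% with quantile normalization.

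**Figure D2:**
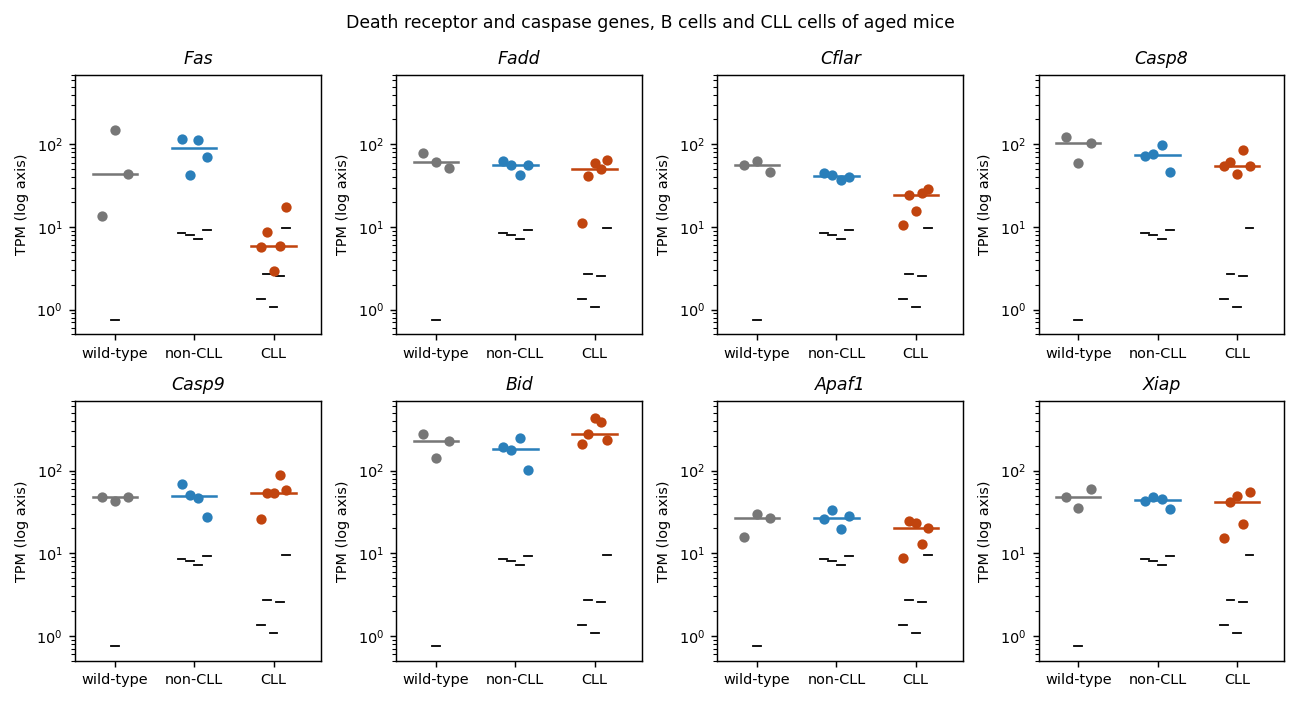
TPM of each of the 8 genes (vertical axes, log scale) in the 12 aged libraries; points are libraries, coloured lines group medians, and short black marks each library's background level where it is above the axis. Fas in CLL cells (2.94 to 17.5 TPM) lies below every non-CLL library (43.0 to 115 TPM), and Bid is the highest member in all 3 groups.

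Fas was at 5.80, 8.73, 2.94, 5.86 and 17.5 TPM in CLL libraries 1, 2, 4, 5 and 6, at 115, 43.0, 113 and 69.4 TPM in non-CLL libraries 2, 4, 5 and 6, while wild-type libraries 1, 2 and 3 had 13.7, 147 and 43.6 TPM. CLL cells were far below non-CLL cells in every library, while the wild-type libraries spread widely and the lowest of them is under the highest CLL library. Against wild-type, the log2 change was -2.52 (SE 0.65, limma adjusted p = 0.0479). That value leans on wild-type library 2, the one with the highest Fas: without it the log2 change was -1.68 (adjusted p = 0.0357), and without wild-type library 1 it was -3.34 (adjusted p = 8.75e-07). Wild-type library 2 also holds RNA of both Xist (38.1 TPM) and Ddx3y (17.4 TPM), Siglech at 126 TPM and Cd3g at 596 TPM, and the part of these in its Fas level was not tested. The call was lost without CLL library 1 (log2 -2.46, adjusted p = 0.0675), without a filter (adjusted p = 0.0608), with quantile normalization (0.0997) and without trend and robust estimation (0.0513).

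Cflar was at 10.6, 24.5, 15.7, 25.9 and 29.0 TPM in CLL libraries, at 44.5, 42.8, 37.0 and 40.8 TPM in non-CLL libraries and, in wild-type ones, at 55.9, 62.2 and 45.7 TPM, in the order given for Fas. The 3 groups do not overlap: CLL is lowest, non-CLL in between and wild-type highest. Against wild-type the log2 change in CLL cells was -1.40 (SE 0.39, limma adjusted p = 0.0351). Among the members, only Cflar had CLL libraries all below the wild-type libraries, which 2.55% of all genes did in that direction (31.5% in either). The call held in 11 of 18 alternatives and was lost, among others, without wild-type library 1 (log2 -1.38, adjusted p = 0.114) or wild-type library 3 (-1.52, adjusted p = 0.0758) and with background subtraction (-1.62, adjusted p = 0.0540).

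None of the other 6 members was called against wild-type. Fadd had a log2 change of -0.69 (95% interval -1.59 to 0.22, limma adjusted p = 0.222), and its level in CLL library 1 (11.1 TPM) was far below the other CLL libraries (41.2 to 64.3 TPM). Without that library the change was -0.26. Casp8 had -0.64 (95% interval -1.32 to 0.04, adjusted p = 0.132) and Bid 0.50 (95% interval -0.13 to 1.14, adjusted p = 0.207). Casp9 had 0.18 (95% interval -0.54 to 0.90), Apaf1 -0.44 (-1.30 to 0.42) and Xiap -0.48 (-1.25 to 0.29). These intervals leave room for changes of 1 on the log2 scale or more in 5 of the 6 genes. With TMM rescaling Fadd (-1.15, adjusted p = 0.0399) and Casp8 (-1.10, adjusted p = 0.0368) were called lower too, and Casp9 turned to -0.27, uncalled.

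The second question sets CLL cells against non-CLL B cells of the same mice. Fas was 9.98-fold lower in CLL cells, the largest difference among the members in any of the 4 comparisons. It was the only member called, and 5.02% of 22316 genes were called lower and 0.744% higher (5.77% in all). Cflar, at 0.496 of the non-CLL level, and Bid, at 1.73 times that level, missed the threshold. At an unadjusted p under 0.05 there were 2 members lower (Fas, Cflar) and 1 higher (Bid). Among all 22316 genes, 8207 were lower and 587 higher at that threshold. The groups did not overlap for Fas and Cflar, 2 of 8 members, both lower, against 7.51% of all genes lower, 1.17% higher and 8.68% in all. The members' median log2 change was -0.40 against -0.77 for all genes tested and -0.06 for genes that reach 20 TPM. Of all called genes 12.9% were higher, against 70.0% with TMM rescaling and 44.9% with quantile normalization. With the mouse number as a block 697 genes were called in place of 1287, and Fas was again the only member among them.

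The Fas change was -3.32 (SE 0.41, limma adjusted p = 1.83e-05). Within mice, Fas fell from 115 to 8.73 TPM in mouse 2, from 43.0 to 2.94 TPM in mouse 4, from 113 to 5.86 TPM in mouse 5 and from 69.4 to 17.5 TPM in mouse 6. It was thus lower in CLL cells in 4 of 4 mice, by 3.97-fold to 19.2-fold, least in the homozygous mouse 6, whose CLL library has the highest background. Relative to each library's own background, Fas stood at 1.81 to 4.34 times that level in CLL cells and at 5.34 to 15.7 times in non-CLL cells. The call held in 20 of 20 alternatives, with log2 changes of -3.74 (background subtraction) to -2.48 (TMM rescaling) and adjusted p of 1.08e-07 to 0.0184. With the mouse number as a block it was -3.26 (adjusted p = 0.000342). Natural killer cell markers and Siglech were higher in every non-CLL library than in any CLL library. The summed dendritic cell markers, led by Ly6d in CLL libraries, were not. The part of natural killer and dendritic cells in the Fas difference was not tested.

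**Figure D3:**
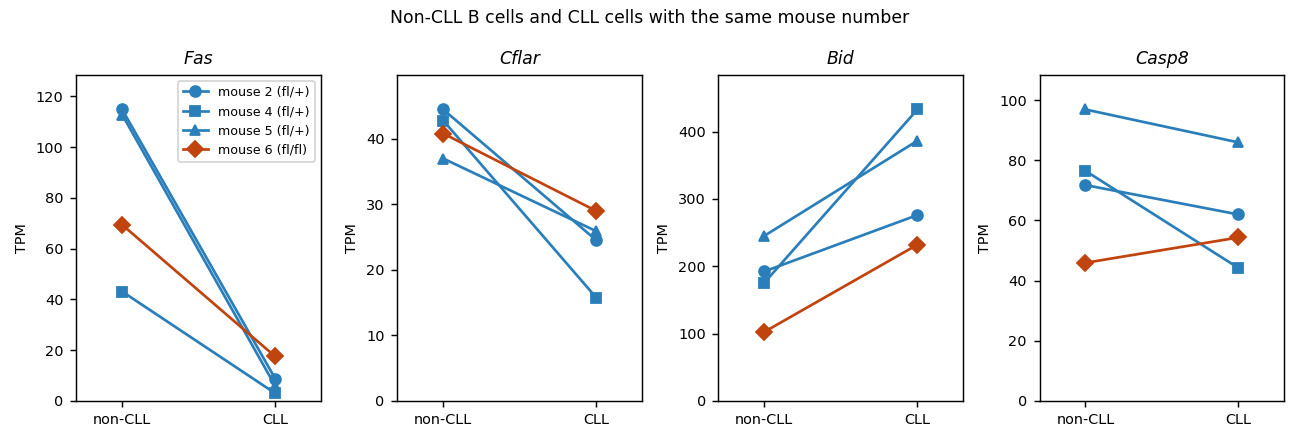
TPM of Fas, Cflar, Bid and Casp8 (vertical axes, from 0) in non-CLL B cells and CLL cells of the 4 mice with both; a line joins the 2 libraries of a mouse, blue for heterozygous and red for homozygous. Fas and Cflar go down and Bid goes up in all 4 mice, while Casp8 goes down in 3 and up in mouse 6.

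Cflar was lower in CLL cells in 4 of 4 mice, by 1.41-fold to 2.72-fold, with a log2 change of -1.01 (SE 0.33, limma adjusted p = 0.0547). It was called without CLL library 6 (log2 -1.14, adjusted p = 0.0101), with library weights (-1.0, adjusted p = 0.00551) and in 1 fit over all 3 aged groups (-1.01, adjusted p = 0.0431). With TMM rescaling its change was -0.13 (adjusted p = 0.788). Over its alternatives the adjusted p ran from 0.00551 to 0.788.

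Bid was at 211, 276, 433, 387 and 232 TPM in CLL libraries, at 192, 176, 245 and 102 TPM in non-CLL libraries and, in wild-type ones, at 275, 143 and 231 TPM. CLL libraries 2, 4 and 5 lie above every library of the other groups, library 2 only just, and CLL libraries 1 and 6 lie within their range. Within mice Bid was higher in CLL cells in 4 of 4, by 1.44-fold to 2.47-fold. The unpaired log2 change was 0.79 (SE 0.29, limma adjusted p = 0.0657). With the mouse number as a block it was 0.91 (adjusted p = 0.0504), and 0.91 (adjusted p = 0.0488) when CLL library 1, which has no partner, was also left out, an alternative chosen after seeing the data. Its adjusted p was 0.0365 without CLL library 6, where the log2 change was 0.88. Over all alternatives the adjusted p ran from 0.0196 to 0.309, and the log2 change from 0.55 (without non-CLL library 6, adjusted p = 0.184) to 1.70 (TMM rescaling, adjusted p = 0.0738).

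Of the remaining members, Apaf1 was lower in CLL cells in 4 of 4 mice, but by no more than 1.52-fold (log2 -0.60, 95% interval -1.34 to 0.13, adjusted p = 0.203). Its levels were 8.88, 24.7, 23.3, 12.9 and 20.4 TPM in CLL, 25.8, 33.0, 19.6 and 28 TPM in non-CLL and 15.8, 29.8 and 26.6 TPM in wild-type libraries. Casp8 was at 54.9, 62.0, 44.2, 85.9 and 54.3 TPM in CLL, 71.8, 76.5, 96.9 and 45.9 TPM in non-CLL and 123, 59.9 and 105 TPM in wild-type libraries. The 3 ranges of Casp8 overlap, and it was lower in CLL cells in 3 of 4 mice (log2 -0.25, 95% interval -0.85 to 0.34, adjusted p = 0.517). Fadd was higher in CLL cells in 3 of 4 mice, by at most 1.16-fold, yet the log2 change over all libraries was -0.47 (95% interval -1.30 to 0.37, adjusted p = 0.383). Without the unpaired CLL library 1, where Fadd is low, it was -0.03. Casp9 spanned 26.1 to 89.1 TPM in CLL, 27.5 to 69.5 TPM in non-CLL and 42.6 to 47.7 TPM in wild-type libraries (log2 0.17, 95% interval -0.51 to 0.85, adjusted p = 0.711, CLL against non-CLL). It was higher in CLL cells in 3 of 4 mice. Xiap spanned 15.3 to 54.8 TPM in CLL, 34.2 to 47.3 TPM in non-CLL and 35.7 to 60.4 TPM in wild-type libraries and went up in 2 mice and down in 2 (log2 -0.34, 95% interval -1.03 to 0.36, adjusted p = 0.463). With TMM rescaling, the changes of Fadd (0.43), Casp8 (0.65), Apaf1 (0.27) and Xiap (0.55) turned positive and were not called.

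The third question is whether non-CLL B cells of mutant mice differ from wild-type B cells. No member was called in limma, and none had an unadjusted p under 0.05, whereas 55.8% of 22150 genes were called higher and 1.48% lower (57.3% in all). The background level is higher in the non-CLL libraries than in the wild-type libraries. With a filter of 20 TPM the count fell to 83 genes and the median change of all genes from 1.65 to 0.02. The members' median was -0.18. Fas had the widest interval (log2 0.80, 95% interval -0.82 to 2.42, adjusted p = 0.376). Without wild-type library 2 its change was 1.64 (adjusted p = 0.0299), without wild-type library 1 it was -0.02, and with TMM rescaling -0.34. Cflar was the 1 member whose groups did not overlap (log2 -0.39, 95% interval -0.92 to 0.14, adjusted p = 0.195), which 2.33% of all genes did in that direction, 53.7% in the other and 56.0% in either. Of all called genes 97.4% were higher, against 69.1% with TMM rescaling and 38.5% with quantile normalization. TMM rescaling moved the median of all genes to 0.92 and called 6 members lower (Fadd, Cflar, Casp8, Casp9, Bid and Xiap, by 1.13 to 1.53 on the log2 scale). The comparisons that use the same wild-type, CLL or non-CLL libraries are not independent of each other.

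**Figure D4:**
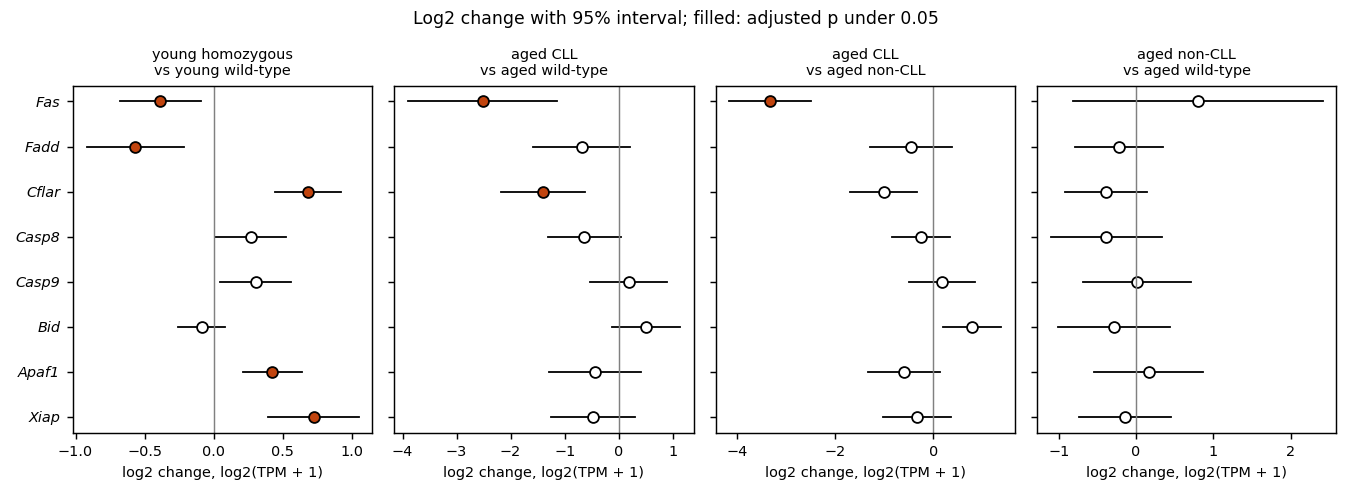
Log2 change with its 95% interval (horizontal axes, log2(TPM + 1) scale, a different range in each panel) of the 8 genes in the 4 comparisons; filled points have a limma adjusted p under 0.05. Filled are 5 genes in young cells, Fas and Cflar in CLL against wild-type, Fas alone in CLL against non-CLL, and none in non-CLL against wild-type.

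Levels per gene length can be ordered within a group. In young wild-type B cells Casp8 was highest at 78.9 ± 12.8 TPM (SD, n = 3), followed by Bid at 70.6 ± 0.415 TPM, and these 2 overlap. Xiap (35.0 TPM), Cflar (21.9 TPM), Casp9 (21.4 TPM), Apaf1 (13.5 TPM), Fas (8.04 TPM) and Fadd (7.85 TPM) came next, of which Cflar and Casp9, and Fas and Fadd, overlap. The order of means was the same in young homozygous cells, from Casp8 at 94.4 ± 4.67 TPM to Fadd at 4.95 ± 0.771 TPM. In all 3 aged groups Bid was highest, at 216 ± 66.9 TPM in wild-type (n = 3), 179 ± 59.0 TPM in non-CLL (n = 4) and 308 ± 97.5 TPM in CLL cells (n = 5). Apaf1 had the lowest mean in wild-type (24.1 ± 7.30 TPM) and non-CLL cells (26.6 ± 5.53 TPM), clear of the member next in mean in both. Its range still overlapped that of Fas in wild-type (15.8 to 29.8 TPM against 13.7 to 147 TPM). In non-CLL cells it overlapped that of Casp9 (19.6 to 33.0 TPM against 27.5 to 69.5 TPM). In CLL cells Fas was lowest at 8.15 ± 5.59 TPM, where it overlaps Apaf1 (18.0 ± 6.84 TPM). The rank of Fas was 3 of 8 in wild-type cells (68.1 ± 70.0 TPM) and 2 of 8 in non-CLL cells (85.0 ± 34.9 TPM). The 2 tables were made separately, so a young level is not compared with an aged one.

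A ratio between 2 genes of the same library does not change when the library is rescaled. The level of Cflar as a percentage of that of Casp8, restraint over caspase, was 27.9% (25.8% to 30.0%) in young wild-type and 40.2% (32.5% to 40.8%) in young homozygous libraries, given as median and range, without overlap. In the aged set it was 45.3%, 104% and 43.4% in wild-type libraries 1, 2 and 3, 62.0%, 55.9%, 38.2% and 88.9% in non-CLL libraries 2, 4, 5 and 6, and 19.4%, 39.5%, 35.6%, 30.1% and 53.3% in CLL libraries 1, 2, 4, 5 and 6. The CLL library of each mouse was below its non-CLL library, but the groups overlap. Xiap over Casp9 was 1.62 (1.60 to 1.68) in young wild-type and 2.19 (2.03 to 2.35) in young homozygous libraries, again apart. It was 1.00 (0.838 to 1.27) in aged wild-type, 0.951 (0.623 to 1.25) in non-CLL and 0.791 (0.256 to 0.951) in CLL libraries, which overlap. Apaf1 over Casp9 overlapped in every set, at medians of 0.648 and 0.663 in young and 0.559, 0.533 and 0.354 in aged wild-type, non-CLL and CLL libraries. No test was made on these ratios.

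**Figure D5:**
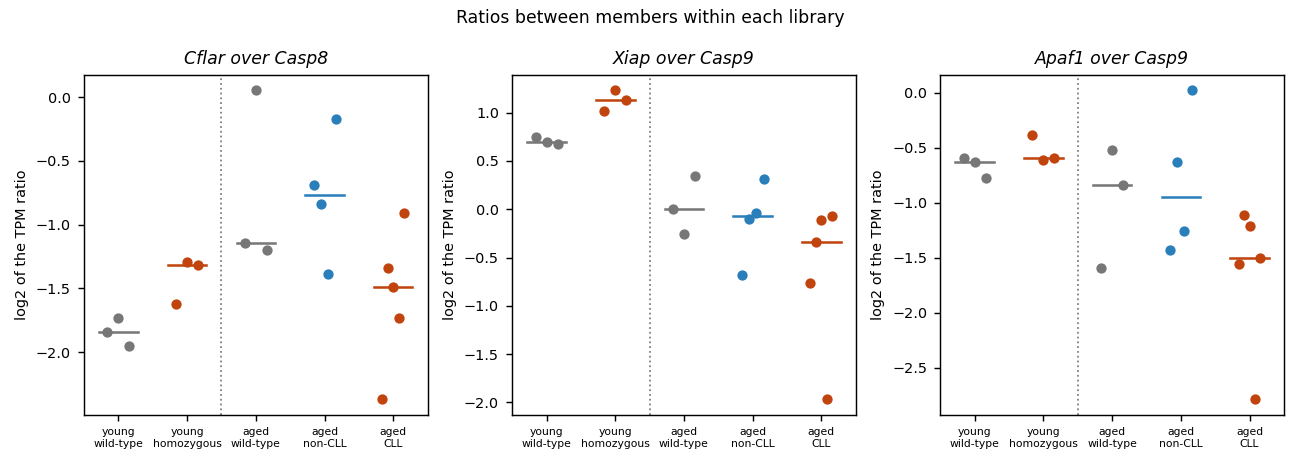
Log2 of the TPM ratio of Cflar to Casp8, Xiap to Casp9 and Apaf1 to Casp9 (vertical axes) in each library of the 5 groups, with group medians as lines; the dotted line divides the 2 separately made tables. Young groups are apart for the first 2 ratios, and the aged groups overlap for all 3.

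The wider pathway was read from 5 lists of receptors and ligands, adaptors, caspases, inhibitors of apoptosis, and apoptosome and effector genes, with 64 genes other than the members. In young cells 53 were tested, of which 18 were higher and 3 lower, 39.6% against 51.0% of all genes, with a median log2 change of 0.11 against 0.18. Tnfrsf10b, the mouse TRAIL receptor, rose (log2 0.86, adjusted p = 0.00214) from a low level of 0.656 to 2.00 TPM, next to the fall of Fas in the same list of receptors. Among adaptors and regulators the largest were Casp8ap2, which binds Casp8 (0.59, adjusted p = 0.00362), the deubiquitinase Cyld (0.56, adjusted p = 0.00152) and Dedd2 (0.48, adjusted p = 0.00357). Beside Xiap, the inhibitors Birc6 (0.76, adjusted p = 0.00394) and Birc2 (0.53, adjusted p = 0.00170) rose, and Naip2, a sensor of bacterial proteins, fell (-0.80, adjusted p = 0.0138). Naip2 has near-identical relatives, so its value is uncertain. Downstream, Acin1, Rock1 and Parp1, all cut by caspases, rose by 0.81, 0.67 and 0.55 (adjusted p = 0.000357, 0.000785 and 0.00177).

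In CLL cells against wild-type, 2 of 60 tested pathway genes were higher and none lower, 3.33% against 3.54% of all genes. At an unadjusted p under 0.05 limma gave 11 higher and 1 lower, against 9033 and 743 of all 21202 genes. Dedd2, which binds caspases through its death effector domain, was at 29.4 to 39.2 TPM in CLL and 8.78 to 18.3 TPM in wild-type libraries (log2 1.38, adjusted p = 0.0424). The receptor Tnfrsf25 was at 1.52 to 53.3 TPM in CLL libraries and at 0 to 1.51 TPM in wild-type libraries (log2 2.90, adjusted p = 0.0265), a low level in most libraries. Between CLL and non-CLL cells none of 61 was called in limma, against 5.77% of all genes. At an unadjusted p under 0.05, 8 of the 61 were lower and none higher, against 8207 and 587 of all 22316 genes. Fasl, the ligand of Fas, was in that group of 8, at a mean of 4.41 TPM in CLL and 11.7 TPM in non-CLL cells, both close to the background. In non-CLL cells against wild-type 17 of 61 were higher and none lower, 27.9% against 57.3% of all genes. At an unadjusted p under 0.05 limma gave 19 and 1, against 13084 and 465 of all 22150 genes. Among the 36 genes with a mean of at least 20 TPM only Tradd, the adaptor of TNF receptor 1, was called (log2 0.78, adjusted p = 0.0342). It was at 29.4 to 50.1 TPM in non-CLL and 18.2 to 23.5 TPM in wild-type libraries. The others named by rule were near the background of the non-CLL libraries: Casp12 and Eda2r at means of 16 and 10.1 TPM, Fasl at 11.7 TPM, Edar at 6.71 TPM, Casp14 at 7.11 TPM, Birc7 at 5.06 TPM, Naip1 at 8.83 TPM, Naip6 at 7.57 TPM, Nlrp1a at 8.52 TPM, Cycs at 14.3 TPM and Gas2 at 10.3 TPM.

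The genes whose levels were most like those of Fas over the 12 aged libraries, among 6781 with a mean of at least 20 TPM, were Tbx21 (Pearson r = 0.948) and Hsd11b1 (r = 0.935). Tbx21 was at 17.1 to 52.2 TPM in wild-type, 24.0 to 51.6 TPM in non-CLL and 0 to 6.16 TPM in CLL libraries. Those most like Cflar were Dpp4 (r = 0.977) and St6gal1 (r = 0.95). Dpp4 was at 61.9 to 71.3, 32.7 to 51.7 and 2.35 to 16.3 TPM in the same groups, an order without overlap as for Cflar. Over the 6 young libraries, Mark2 (r = 1.00) was most like Cflar and Casd1 (r = 0.999) most like Xiap. With few libraries in groups that differ, many genes reach such values, and the libraries share their depth and scaling.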

How the data were processed

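RNA-seq of 18 libraries was used, and the 12 chromatin samples of the series were not analysed here. TPM values were computed by the authors, and each deposited column sums to the full scale of the unit. The labels name TPM for the aged table, and for the young table the unit is taken from the values. The submitters' processing notes name mm10, MACS2 2.2.0, Bowtie2 2.3.4.1 and STAR 2.4.0.1 without assigning them to assays, and the quantification tool is not given in the sources used here. Entries without a gene name (887 in the young table, 4.44% to 9.36% of TPM) and names turned into dates (25 aged, 26 young) were left out, which leaves 22781 aged and 26266 young genes. TPM keep no depth, so no counting interval is given.

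A gene was kept if the number of libraries where it reached 1 TPM was no less than the size of the smaller group. Kept genes were tested on log2(TPM + 1) with limma 3.58.1 in R 4.3.3 (two-sided, variance trend, robust estimation), with Benjamini-Hochberg adjustment over all genes tested and a threshold of 0.05. Each comparison was fitted on its 2 groups within its own table. Fold values are ratios on this scale. The labels do not say that every library comes from a separate animal, in which case p-values measure only the spread between these libraries.

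The members, pathway lists and markers were chosen with earlier results of these data known. Named are all 8 members, in each list up to 3 called genes with the largest change and no overlap between groups, the 2 genes most correlated with a member (printed for those with large changes), and leading markers. One gene that this rule picks is not reported here. Groups sharing a number were also fitted with the number as a replicate block. For CLL and non-CLL cells the pairing comes from the series text. Over 6782 genes the deviations of same-numbered libraries correlated at -0.02, -0.01, 0.06 and 0.21 for mice 2, 4, 5 and 6. CLL libraries 2, 4 and 5 correlated best with a non-CLL library of another number, and only library 6 with its own. Other alternatives were a pseudocount of 0.1, no filter or 20 TPM, TMM and quantile scaling, library weights, plain variance estimation, background subtraction, 1 fit over the aged groups and leaving out libraries.

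On simulated data, the procedure recovered 90% of genes changed by 1 and 98% of those changed by 2 on the log2 scale in the young comparison (12219 genes). It recovered 6% and 78% for CLL against wild-type (21202 genes), 7% and 70% for CLL against non-CLL (22316 genes), and 9% and 62% for non-CLL against wild-type (22150 genes). False calls made up 2.59%, 13.4%, 2.53% and 5.33% of calls, in the same order. Changes were placed in a small part of the genes, all at about 20 TPM or more in the reference group. Noise was normal and of equal spread in both groups. The rates therefore do not cover lower genes, such as Fas, Fadd and Apaf1 in young cells, or comparisons in which most genes are called.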

Additional observations from a re-analysis of the deposited data

Results flagged for a closer look

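The change of Cflar had opposite signs in the young and aged sets, but the aged non-CLL change was not called. All young homozygous libraries were above all young wild-type libraries (log2 0.68), while all aged non-CLL libraries (log2 -0.39) and all aged CLL libraries (log2 -1.40) of mutant mice were below all aged wild-type libraries. The difference between the sets was not tested. The 2 tables were made separately, and the young mutant mice were homozygous while most aged mutant mice were heterozygous. Sex differs too: Ddx3y was at 107 to 148 TPM in young homozygous libraries and at most 0.135 TPM in aged mutant libraries. Age, genotype, sex and table cannot be told apart, and the CLL libraries are leukaemic as well. The 2 aged values share their wild-type libraries. In 16 checks of groups of 4 or 5 libraries, the rule for outliers flagged no library of a member. It did not flag Fadd in CLL library 1 (11.1 TPM, against 41.2 to 64.3 TPM in the other CLL libraries).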

How the results depend on the processing

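Of 125 recomputed member values in the young comparison none changed direction, 14 lost and 9 gained a call. For CLL against wild-type 3 of 143 changed direction, 12 lost and 4 gained a call. For CLL against non-CLL 6 of 160 changed direction and 6 gained a call, and for non-CLL against wild-type 13 of 128 changed direction and 9 gained a call, of which Casp9 with TMM rescaling did both. The causes were not tested. A stricter filter lowers the number of genes tested, while leaving out a library keeps that number and lowers the number of libraries. TPM carry no depth, and levels near the background limit what can be said of Fas in CLL cells.

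In the young comparison 5 members and 6237 genes were called. The counts were 0 and 10 without a filter, 3 and 4002 with a filter of 20 TPM (which Fas, Fadd and Apaf1 did not pass), and 3 and 2925 without wild-type libraries 1 and 2. Leaving out 1 library gave 4 to 6 members and 4553 to 6730 genes.

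For CLL against wild-type 2 members and 751 genes were called. A pseudocount of 0.1 gave 8853 genes and 1 fit over the aged groups 6712. Members and genes were 1 and 416 without a filter, 0 and 149 with 20 TPM (Fas not tested), 4 and 6520 with TMM rescaling, 0 and 81 with quantile normalization, 4 and 12299 with library weights, 0 and 135 with plain variance estimation, and 1 and 101 with background subtraction. Leaving out 1 library gave 1 to 2 members and 347 (without wild-type library 3) to 7914 genes (without CLL library 4). Casp9 turned to -0.27 with TMM rescaling and to -0.0063 without CLL library 5.

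For CLL against non-CLL 1 member and 1287 genes were called. Genes numbered 256 with a pseudocount of 0.1, 232 with 20 TPM, 350 with TMM rescaling, 185 with quantile normalization, 156 with plain variance estimation and 348 with background subtraction. Members and genes were 3 and 11705 with library weights and 2 and 3387 in 1 fit over the aged groups. Leaving out 1 library gave 1 to 3 members and 325 (without CLL library 1) to 11107 genes (without CLL library 6). TMM rescaling turned Fadd (0.43), Casp8 (0.65), Apaf1 (0.27) and Xiap (0.55), and Casp9 turned to -0.02 without CLL library 5 and to -0.072 without non-CLL library 6 (with 1 library left out, at most 0.41, without CLL library 1).

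For non-CLL against wild-type 0 members and 12681 genes were called. Genes fell to 83 with 20 TPM, 39 with quantile normalization and 43 with background subtraction. Members were 6 with TMM rescaling and 2 with library weights, and 0 to 1 with 1 library left out. TMM rescaling turned Fas (-0.34), Casp9 (-1.13) and Apaf1 (-0.96), quantile normalization Casp9 (-0.069) and Apaf1 (-0.19), and background subtraction Casp9 (-0.29) and Apaf1 (-0.35). Leaving out 1 library turned Casp9 (-0.18, -0.03 and -0.04 without non-CLL library 2, non-CLL library 4 and wild-type library 2, and up to 0.26 without non-CLL library 6), Fas (-0.024 without wild-type library 1, up to 1.64 without wild-type library 2), Apaf1 (-0.10 without wild-type library 1) and Xiap (0.035 without wild-type library 3).

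The mouse numbers pair CLL and non-CLL cells. With the replicate block 1 member and 697 genes were called. On the 4 pairs only, chosen after seeing the data, 2 members (Fas and Bid) and 782 genes were called, and the block changed no other member's call. Elsewhere the libraries share only a number. With the block, young cells gave 7 members and 6631 genes (the pairing check gave correlations of -0.05, 0.28 and 0.33, and library 1 correlated best with another number), and CLL against wild-type gave 0 members, 2 genes and -0.26 for Casp9. Non-CLL and wild-type libraries come from different mice and share a single number, so no block was fitted for them.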
